A study of Mus musculus with 36 samples.

Results

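The data described here were 4 RNA-seq libraries of the unmyelinated optic nerve (UON), 2 from C57BL/6 mice 6 weeks (6W) after a bead injection and 2 from naïve C57BL/6 mice, out of 36 libraries in the series. They were taken by their labels alone, as the UON libraries labelled 6W and Glaucoma and those labelled 0D and Naïve, with 1 female and 1 male library in each group. In the glaucoma group, microbeads had been injected into the anterior chamber of 1 eye to raise intraocular pressure (IOP), and the naïve mice had been treated in neither eye. The UON was the short stretch of nerve cut from behind the globe, before the visible start of myelin, and each library held RNA of 2 mice of 1 sex, pooled in equal amounts. The p-values below therefore measured the spread between pools, and the sex of a pool cannot be told apart from the pool itself. The question put to these libraries was which genes of the UON still differed from naïve tissue at the latest time of the glaucoma model. The same model was sampled at 3 days (3D) and 2 weeks (2W), in 2 UON libraries each, which shared the fit and are given where they place the 6W values in time.

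The optic nerve head is where the axons of all retinal ganglion cells leave the eye, and it is regarded as an early site of axonal damage when IOP is raised. In the mouse this stretch has no myelin and no stiff collagen plates, and the axon bundles run through tubes formed by astrocytes, which respond to injury with changes in shape, matrix contact and gene expression. Microglia, oligodendrocyte lineage cells just behind, vessels, meninges and the surrounding sclera make up the rest of the tissue, so a bulk library of the UON is a mixture in which fewer cells of a type and less RNA per cell cannot be told apart.

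The 4 libraries held between 47.7 and 53 M estimated counts, and 22438 of 55487 genes passed the filter on low counts. Astrocyte markers were abundant in each of them: Gfap, the intermediate filament of astrocytes, stood at 11700 and 15000 CPM (counts per 1 M of the TMM-scaled library size) in the naïve female and male pools and at 13400 and 16400 CPM in the 6W pools. Myelin genes were abundant as well in tissue labelled as unmyelinated, with Mbp at 19000 and 14300 CPM in the naïve pools and at 9640 and 25300 CPM at 6W. Mitochondrially encoded genes took 1.39% and 0.621% of the counts of the naïve female and male pools and 0.265% and 0.545% of those of the 6W pools. Across genes, the log2 CPM of the 2 naïve pools correlated at r = 0.946 and those of the 2 6W pools at r = 0.943, while pairs with 1 pool of each group lay between 0.944 and 0.95. A 6W pool thus resembled a naïve pool about as closely as it resembled the other 6W pool, with genes not being independent replicates.

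No gene passed the test at 6W. By edgeR's quasi-likelihood test with Benjamini-Hochberg adjustment, 0% of the 22438 genes had an adjusted p under 0.05 with a log2 fold change beyond 1, and the smallest adjusted p was 1. Below an unadjusted p of 0.05 were 451 genes (2.01%), of which 146 were higher (0.651%) and 305 lower (1.36%) at 6W than in naïve UON. DESeq2, with the model of time point and sex that the study describes, called 33 genes (0.15% of the 22000 it gave an adjusted p), 12 higher (0.0545%) and 21 lower (0.0955%), and all 33 had an unadjusted p under 0.05 in edgeR as well. The number of calls at 6W therefore turned on the test used. Both 6W pools lay above both naïve pools for 3307 genes (14.7%) and below them for 3511 (15.6%), 6818 in all (30.4%), and these shares are the background for every count of non-overlapping genes below. The genes named first are the 10 higher and 10 lower genes with the smallest unadjusted p, so that their separation from naïve is how they were chosen, and for each of them the edgeR adjusted p was 1.

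**Figure D1:**
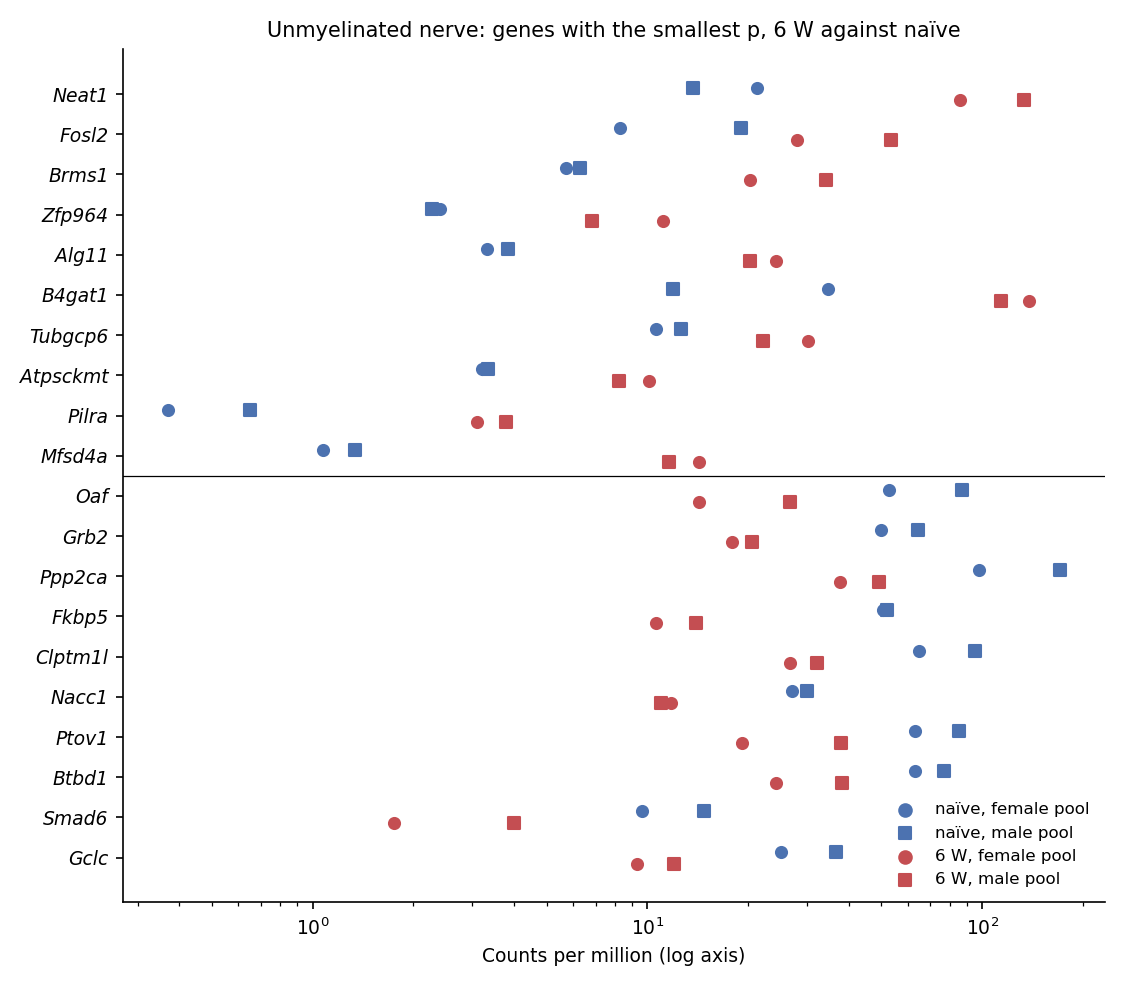
The plot shows CPM on a log axis for the 10 higher genes (above the line) and the 10 lower genes (below it), with blue for naïve, red for 6W, circles for female and squares for male pools. Red and blue points do not overlap for any of the 20, the gap being narrow for Fosl2, where the naïve male pool was at 19 CPM and the 6W female pool at 27.9 CPM.

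Neat1, the nuclear long noncoding RNA around which paraspeckles are built, was the gene with the smallest p among those higher at 6W. It stood at 21.2 CPM in the naïve female and 13.7 CPM in the naïve male pool, and at 85.9 and 133 CPM in the 6W female and male pools. Both 6W pools were above both naïve pools, a log2 fold change of 2.66 ± 0.38 (SE, 95% interval 1.78 to 3.54, n = 2 pools per group, adjusted p = 1, DESeq2 adjusted p = 6.7e-07). The course over the model was not monotonic: at 3D it stood at 192 and 127 CPM and at 2W at 23.9 and 29.4 CPM, so that the 2W pools lay close to naïve between the higher pools of 3D and 6W. The direct 6W minus 2W difference was 2.04 ± 0.37 (edgeR adjusted p = 0.77), and the 6W minus 3D difference was -0.53 ± 0.36 (edgeR adjusted p = 0.94). Its chromosome neighbour Malat1, another abundant nuclear noncoding RNA, was lower at 6W, with 2600 and 2160 CPM in naïve and 1620 and 1370 CPM at 6W (log2 fold change -0.67 ± 0.31).

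Neat1 is made as a short transcript that ends at a polyadenylation signal and as a long one that reads past it, and the long form is the one known as the scaffold of paraspeckles. In GRCm38 the long transcript covers chr19:5824708-5845478 on the minus strand (20771 bases) and the short one chr19:5842307-5845476 (3004 spliced bases). The 100 bases around the end of the short transcript, chr19:5842267-5842366 on the minus strand, are shown because they separate both forms, with the AATAAA signal, 20 bases before the end, in capitals; the last 40 bases are found in the long form and not in the short one.

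Neat1 short end: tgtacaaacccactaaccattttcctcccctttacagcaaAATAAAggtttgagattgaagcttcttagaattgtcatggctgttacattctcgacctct

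The deposited transcript counts placed the larger part of the 6W counts on the long form. They are not corrected for length, and the long form has 20771 bases against 3004 for the short one. A share of counts is therefore not a share of molecules, and a longer transcript gathers more counts per molecule. Neat1-201, the long transcript, had 353 and 549 counts in the naïve female and male pools and 3754 and 5500 counts in the 6W pools. Neat1-202, the short transcript, had 429 and 78 counts in naïve and 429 and 351 counts at 6W. Neat1-203, a shorter one of 1030 bases, had 252 and 6 counts in naïve and 285 and 72 counts at 6W. The long form took 54.1% of the gene's counts over the naïve pools and 89.1% over the 6W pools, but the naïve pools differed, with 34.1% in the female and 86.7% in the male. How reads shared by both forms are divided is StringTie's estimate. In the authors' FPKM the same pools were at 7.22 and 1.04 in naïve and at 10.1 and 8.30 at 6W, in the same order as the groups but with a much smaller gap for the female pair. The gene also overlaps 3 small annotated RNAs on its own strand.

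Fosl2, a subunit of the AP-1 transcription factor, was likewise higher at 3D and 6W than at 2W within each sex. It stood at 8.27 and 19 CPM in the naïve female and male pools and at 27.9 and 53.6 CPM at 6W, with the male pool above the female one in both groups. The log2 fold change was 1.63 ± 0.26 (adjusted p = 1, DESeq2 adjusted p = 3.7e-04), the 3D pools were at 22.1 and 55.7 CPM and the 2W pools at 10.5 and 25.1 CPM. Of the 20 immediate early genes tested, 4 lay above and 3 below naïve in both pools, and only Fosl2 and Fos had an unadjusted p under 0.05, both higher (background 0.651%). Fos, the partner-forming AP-1 subunit, was at 24 and 45.8 CPM in naïve and at 36.4 and 75.8 CPM at 6W (log2 fold change 0.67 ± 0.24), with overlapping pools. Jund, another AP-1 subunit, had the opposite sign, with 221 and 324 CPM in naïve against 9.9 and 121 CPM at 6W, the 6W pools being far apart (-2.51 ± 1.34). The list's median difference was 0.27, beside -0.0083 over all genes.

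B4gat1, a glycosyltransferase that extends the sugar chains of dystroglycan, had 34.6 and 11.9 CPM in the naïve pools and 138 and 114 CPM at 6W. The 6W pools were both higher, but the 3D pools were at 100 and 8.67 CPM and so spanned the naïve range (log2 fold change at 6W 2.79 ± 0.68, DESeq2 adjusted p = 0.0073). Its neighbour Brms1, a component of histone deacetylase complexes, was at 5.72 and 6.27 CPM in naïve and at 20.3 and 34.1 CPM at 6W (2.18 ± 0.39, DESeq2 adjusted p = 6.5e-04). The pair lies end to end at chr19:5038826-5041131 and chr19:5041354-5049917 on the plus strand, and an annotated gene, AC124502.3, runs over both on the same strand, so reads may be divided among the 3 and the counts of each are uncertain. Alg11, a mannosyltransferase of the dolichol pathway that builds N-glycans, was at 3.32 and 3.83 CPM in naïve and at 24.3 and 20.3 CPM at 6W (2.58 ± 0.55, DESeq2 adjusted p = 0.0046). At 2W its pools stood at 33.9 and 11.2 CPM, already above naïve, and at 3D at 14.4 and 4.23 CPM.

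The other 5 higher genes shared a pattern in which the naïve pools stood below every later pool. Alg11 and Brms1 showed it as well, with Brms1 at 24.7 and 16.7 CPM at 3D and at 12.9 and 11.5 CPM at 2W. Zfp964, a zinc finger gene, was at 2.4 and 2.27 CPM in naïve, between 6.51 and 8.37 CPM over the 4 pools of 3D and 2W, and at 11.1 and 6.83 CPM at 6W (1.90 ± 0.41). Atpsckmt, a mitochondrial lysine methyltransferase, was at 3.2 and 3.33 CPM in naïve and at 10.1 and 8.24 CPM at 6W (1.48 ± 0.37). Tubgcp6, a member of the gamma-tubulin ring complex that nucleates microtubules, was at 10.6 and 12.6 CPM in naïve and at 30.2 and 22.2 CPM at 6W (1.18 ± 0.29). Pilra, an inhibitory receptor of myeloid cells, was near the detection limit in naïve UON, at 0.369 and 0.649 CPM, and stood at 3.09 and 3.79 CPM at 6W (2.75 ± 0.69). Mfsd4a, a membrane transporter, was at 1.07 and 1.34 CPM in naïve and at 14.3 and 11.6 CPM at 6W (3.42 ± 0.85). All 3 times are compared with the same 2 naïve pools, so these differences are not independent of each other. Tubgcp6, Pilra and Mfsd4a overlap a gene on the opposite strand, and whether the counting used strand is not given in the sources used here.

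Oaf, a secreted protein gene, had the smallest p among the lower genes. It stood at 52.8 and 86.9 CPM in the naïve female and male pools and at 14.3 and 26.6 CPM at 6W. Both 6W pools were below naïve, and also below the 4 pools of 3D and 2W, which ranged from 29.9 to 52.1 CPM (log2 fold change -1.79 ± 0.25, 95% interval -2.37 to -1.21, adjusted p = 1, DESeq2 adjusted p = 1.2e-05). Smad6, the inhibitory Smad that restrains BMP signalling, went the same way, from 9.64 and 14.8 CPM to 1.75 and 3.99 CPM (-2.15 ± 0.45, DESeq2 adjusted p = 0.0060). Of the 28 genes of TGF-beta and BMP signalling tested, Smad6 was the single one with an unadjusted p under 0.05, and the list's median was -0.024. Thbs1, a matrix protein that activates latent TGF-beta, was the list's most positive member, at 11.6 and 24.2 CPM in naïve and 48.4 and 53.9 CPM at 6W (1.65 ± 0.80).

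Grb2, the adaptor that links receptor tyrosine kinases to Ras, was at 49.8 and 64.3 CPM in naïve and at 17.9 and 20.5 CPM at 6W. The pools of each group lay close together and well apart from the other group (-1.56 ± 0.23, adjusted p = 1, DESeq2 adjusted p = 2.7e-04). Ptpra, a receptor phosphatase that binds Grb2, was at 171 and 233 CPM in naïve and at 52.6 and 86.3 CPM at 6W (-1.55 ± 0.33). Lrig1, a membrane protein that limits receptor tyrosine kinase signalling, was at 52.7 and 93.6 CPM in naïve and at 21.8 and 20.2 CPM at 6W (-1.78 ± 0.39). Rasgrf2, a Ras exchange factor, had 45 and 31 counts in the naïve pools and 0 in both 6W pools, at a level under 1 CPM in naïve. These were the 4 lower genes with an unadjusted p under 0.05 among the 31 receptor tyrosine kinase and Ras adaptor genes tested (background 1.36%), and DESeq2 called the same 4 (background 0.0955%). Met, the receptor of hepatocyte growth factor, was the only higher member at that limit, at 17.2 and 9.69 CPM in naïve and 21.1 and 31.5 CPM at 6W (0.96 ± 0.39). Over the whole list 7 genes lay below and 4 above naïve in both pools, and the median of -0.13 was close to that of all genes. This list was drawn up with earlier results of these data known, Grb2 among them. Its counts set against the background are therefore no independent evidence about these genes.

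Fkbp5, a co-chaperone of the glucocorticoid receptor and a widely used readout of its activity, was at 50.4 and 52.1 CPM in naïve and at 10.6 and 14 CPM at 6W. The naïve pools were nearly equal and both 6W pools lower (-2.08 ± 0.36, 95% interval -2.92 to -1.25, adjusted p = 1, DESeq2 adjusted p = 4.6e-04). At 3D the Fkbp5 pools lay on both sides of naïve, at 30.8 and 71.2 CPM, and at 2W both were already lower, at 23.3 and 22.3 CPM. The direct 6W minus 3D difference was -2.0 ± 0.36 (edgeR adjusted p = 0.68). That of 6W minus 2W was -0.92 ± 0.35 (edgeR adjusted p = 0.86). Of the 20 glucocorticoid response genes tested, 8 lay below and 2 above naïve in both pools. In both the female and the male pair, 11 were lower against 3 higher. Over all 22438 genes tested, 5459 were lower in both pairs and 5252 higher in both. The list's median was -0.31, with -0.44 in the female and -0.31 in the male pair. Klf9, a transcription factor gene induced by glucocorticoids, was the other member with an unadjusted p under 0.05, at 254 and 308 CPM in naïve and 94.4 and 194 CPM at 6W (-1.0 ± 0.33). Tsc22d3, which encodes the glucocorticoid-induced leucine zipper, was at 373 and 325 CPM in naïve and 180 and 233 CPM at 6W (-0.72 ± 0.37). Per1 and Sgk1, which are induced by the same receptor, were the 2 members with both 6W pools above naïve, by 0.29 and 0.14. This list was also drawn up with earlier results of these data known.

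The transcript counts of Fkbp5 differed between annotated start sites. Fkbp5-201, which starts at 28486149 on chromosome 17, had 2348 and 2385 counts in naïve and 0 and 13 at 6W, whereas Fkbp5-202, which starts upstream at 28517524, had 28 and 0 in naïve and 490 and 608 at 6W. The 2W male pool was also on Fkbp5-202, with 324 counts and 0 on Fkbp5-201, while the 2W female pool had 975 counts on Fkbp5-201. The leading transcript of Zfp964 also differed, from Zfp964-201 with 101 and 100 counts in naïve to Zfp964-203 with 0 in naïve and 534 and 275 at 6W. Mfsd4a counts lay on Mfsd4a-204 in naïve (47 and 59) and on Mfsd4a-205 at 6W (724 and 484). Such switches between nearly all and nearly none are estimates of StringTie's assembly, and their part in the gene-level differences was not tested.

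**Figure D2:**
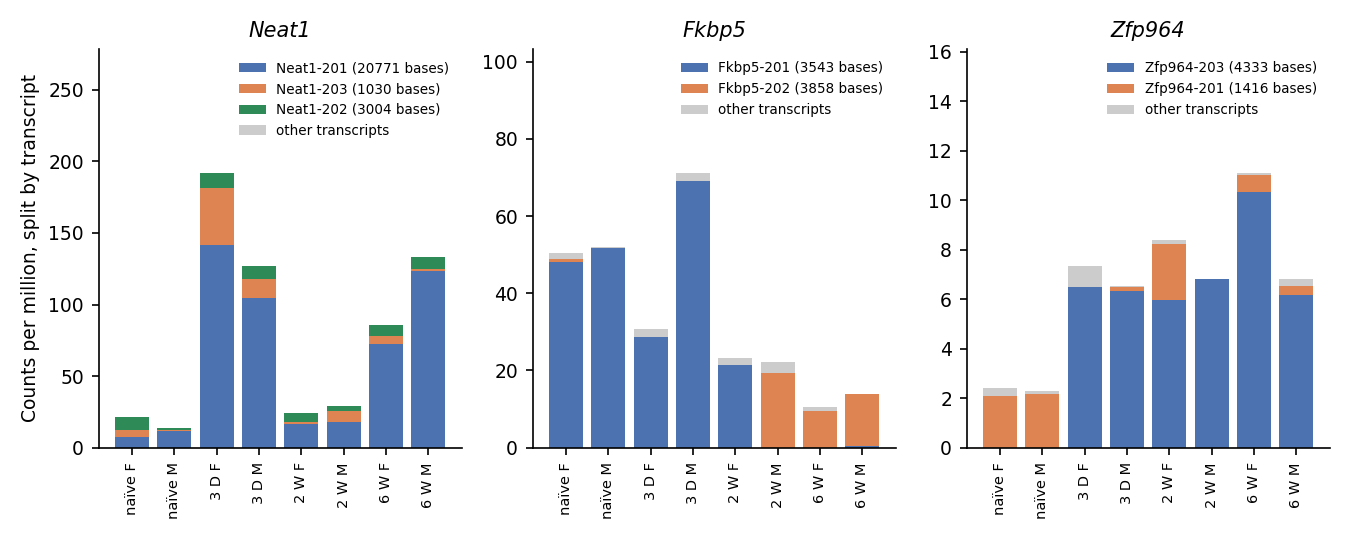
Stacked bars give CPM of Neat1, Fkbp5 and Zfp964 in the 8 UON libraries, divided by the share of the gene's counts on each transcript, with F and M for female and male pools. The long Neat1-201 fills most of the bars at 3D and 6W, and the leading transcript of Fkbp5 differs between naïve and 6W.

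Ppp2ca, the catalytic subunit of protein phosphatase 2A, was at 97.8 and 171 CPM in naïve and at 37.7 and 49.2 CPM at 6W (-1.61 ± 0.27, DESeq2 adjusted p = 0.0021). Gclc, the catalytic subunit of the rate-limiting enzyme of glutathione synthesis, was at 25 and 36.7 CPM in naïve and at 9.32 and 12 CPM at 6W (-1.52 ± 0.32, DESeq2 adjusted p = 0.049). Nacc1, a transcriptional repressor, was at 27 and 30 CPM in naïve, between 25.6 and 28.2 CPM at 3D and 2W, and at 11.8 and 11 CPM at 6W (-1.32 ± 0.26). Nacc1 thus stood at one level in 6 pools and at a lower one in the 2 pools of 6W. Clptm1l, a membrane protein gene, had a like course, with 64.9 and 95.3 CPM in naïve, 58.9 to 71.4 CPM at 3D and 2W, and 26.6 and 32.2 CPM at 6W (-1.43 ± 0.25). Ptov1 was at 63.2 and 85 CPM in naïve and 19.2 and 37.9 CPM at 6W (-1.42 ± 0.29), and Btbd1, a substrate adaptor of cullin 3 ubiquitin ligases, at 62.9 and 77 CPM and 24.2 and 38.2 CPM (-1.18 ± 0.24). Ppp2ca, Fkbp5, Nacc1, Btbd1, Lrig1 and Ptpra overlap annotated genes on the opposite strand, with the same limit as above. In the authors' FPKM the gap of Nacc1 was smaller, with 6.03 and 8.44 in naïve and 5.30 and 4.13 at 6W.

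The 250 bases before the RefSeq start of Fosl2, Oaf, Fkbp5 and Ppp2ca (GRCm38.p6) are shown because these are the leading higher gene after Neat1 and 3 of the leading lower ones; capitals mark the motifs found. The motifs searched on both strands were the AP-1 site TGAGTCA, the cAMP response element TGACGTCA, the glucocorticoid receptor core motif AGAACA, the GC box GGGCGG and the TATA box TATAAA. They are held by 4.46%, 1.55%, 16.1%, 32.7% and 12.4% of 32851 RefSeq promoters of the same length. Each of the 4 windows holds a GC box, on the plus or minus strand, and that of Ppp2ca also the palindromic cAMP response element at position -26. No AP-1 site or AGAACA is in these 4 windows, which says nothing of more distant sequence. Of the other genes named by p whose windows were searched, Atpsckmt, Mfsd4a, Pilra, Smad6 and Tubgcp6 hold a GC box. B4gat1, Zfp964 and Grb2, which had a smaller p than Fkbp5 and Ppp2ca, hold none. A GC box in each window shown thus depends on which genes were shown. The 4 windows shown lie at chr5:32136222-32136471 (plus strand), chr9:43239817-43240066 (minus), chr17:28486150-28486399 (minus, the start of Fkbp5-201) and chr11:52098574-52098823 (plus). Positions are counted from the RefSeq start, and some Gencode starts differ. Fosl2-201 starts at 32135801, before its window, and Oaf-201 at 43239911 and Ppp2ca-201 at 52098681, inside theirs. The Fosl2 window, parts of those of Oaf and Ppp2ca, and the Ppp2ca cAMP response element thus lie within the span of annotated transcripts.

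Fosl2: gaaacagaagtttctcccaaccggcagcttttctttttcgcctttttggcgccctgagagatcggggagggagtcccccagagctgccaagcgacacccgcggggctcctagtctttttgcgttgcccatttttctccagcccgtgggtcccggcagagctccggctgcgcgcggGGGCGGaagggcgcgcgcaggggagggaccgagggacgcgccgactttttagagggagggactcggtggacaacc

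Oaf: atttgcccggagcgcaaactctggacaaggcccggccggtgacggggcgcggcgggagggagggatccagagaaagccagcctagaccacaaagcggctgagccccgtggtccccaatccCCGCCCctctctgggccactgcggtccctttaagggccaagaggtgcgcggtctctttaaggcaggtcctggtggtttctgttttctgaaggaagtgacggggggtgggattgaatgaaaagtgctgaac

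Fkbp5: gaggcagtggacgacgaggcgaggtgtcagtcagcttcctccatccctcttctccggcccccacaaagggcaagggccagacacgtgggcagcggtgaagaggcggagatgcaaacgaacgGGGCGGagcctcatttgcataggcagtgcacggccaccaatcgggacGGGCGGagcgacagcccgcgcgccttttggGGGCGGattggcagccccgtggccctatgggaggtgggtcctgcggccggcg

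Ppp2ca: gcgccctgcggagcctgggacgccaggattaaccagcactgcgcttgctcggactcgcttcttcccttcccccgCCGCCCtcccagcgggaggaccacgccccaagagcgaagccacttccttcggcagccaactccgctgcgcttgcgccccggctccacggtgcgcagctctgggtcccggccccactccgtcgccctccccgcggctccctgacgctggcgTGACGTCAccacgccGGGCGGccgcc

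Of the 33 genes that DESeq2 called, 17 were among the 20 above, and 16 were not. Timp2, an inhibitor of matrix metalloproteinases, was one of these, at 917 and 1250 CPM in naïve, 435 and 813 CPM at 3D, 844 and 487 CPM at 2W and 204 and 394 CPM at 6W. Both 6W pools lay below the other 6 (-1.89 ± 0.43). Of the 24 matrix proteases and inhibitors tested, Timp2 was the single one with an unadjusted p under 0.05, with 6 above and 4 below naïve in both pools and a median of -0.033. Fjx1, a secreted target of Hippo and Notch signalling, was at 96.9 and 125 CPM in naïve and at 7.82 and 33.3 CPM at 6W, and had already been lower at 3D, at 23.4 and 37.7 CPM (-2.58 ± 0.60 at 6W). Pram1, an adaptor of myeloid cells, had 0 counts in both naïve pools and 65 and 21 counts at 6W. In the same set were 3 pseudogenes of chromosome 1 with a group at 0: Gm28661 had 72057 and 97201 counts in naïve and 0 at 6W, Gm29216 had 0 in naïve and 173411 and 219693 at 6W, and Gm28439 had 0 in naïve and 21223 and 18516 at 6W. The 3D female pool went with naïve for each of the 3, at 55827, 0 and 0 counts, while the other 3D and 2W pools went with 6W; whether near-identical copies share these reads was not tested, and their levels are uncertain. Lower in both 6W pools were also Ndor1, Mocs3, Scarf2, Fign and D630045J12Rik, each under 20 CPM in naïve, and Gm28037, which overlaps Rpl24 and Zbtb11, was higher. The entry deposited as Ndor1 lies at chr2:25244819-25246863 and is named AL732309.1 in Gencode M21. There it overlaps a separate Ndor1 gene on the same strand, so its counts are uncertain. For Scarf2, a scavenger receptor gene at 11.1 and 12.9 CPM in naïve and 2.98 and 2.13 CPM at 6W, the main transcript Scarf2-201 went from 524 and 539 counts to 0 in both 6W pools. Gm26377, which lies inside Eef1a1, was called on 683 counts of the naïve male pool, the other 3 pools having 2 counts each.

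The medians of the astrocyte lists lay near 0. The 14 astrocyte genes tested had a median difference of 0.018, and none of them had an unadjusted p under 0.05. Gfap differed by 0.16 ± 0.24 with overlapping pools, and Vim, another intermediate filament, by 0.092 ± 0.30. The 13 genes of the pan-reactive set had a median of 0.042, the 13 of the A1 set one of -0.026 and the 13 of the A2 set one of -0.07, and 3, 1 and 2 genes of these sets lay above naïve in both pools, against 2, 2 and 2 below. An unadjusted p under 0.05 was found for 3 of the 13 genes of the A1 set (background 2.01%), Ggta1 being higher and Fkbp5 and Iigp1 lower, and for none of the other 2 sets. Serpina3n, a secreted protease inhibitor and marker of reactive astrocytes, was at 376 and 524 CPM in naïve, at 2440 and 1300 CPM at 3D, and at 418 and 651 CPM at 6W (0.24 ± 0.41). The gene of the A1 set that differed most was Fkbp5, described above. Collagen chains had a median of -0.28 over 27 genes, with the female pair at 0.24 and the male pair at -0.68, and genes of matrix attachment one of -0.019 over 17.

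Proliferation genes stood near naïve levels at 6W. At 3D, 18 of 21 were higher at an unadjusted p under 0.05 (background 2.24%) and DESeq2 called 13 (background 0.495%), with a median of 2.95. At 6W the median was -0.12, with 2 genes above and 5 below naïve in both pools. Top2a, which untangles DNA at mitosis, was at 4.82 and 2.06 CPM in naïve, at 52.5 and 60.6 CPM at 3D, and at 4.02 and 1.68 CPM at 6W. In the direct comparison, Top2a had a 6W minus 3D difference of -4.51 ± 0.49 (edgeR adjusted p = 0.19), and DESeq2 called 14 of the 21 lower (background 0.562%). The 2 genes above naïve were Pcna, by 0.20 ± 0.25, and Cenpf. Cenpf, a kinetochore protein gene, was the larger, with 11.2 and 10.3 CPM in naïve and 23.1 and 14.9 CPM at 6W (0.78 ± 0.28), still under its 50.1 and 36.4 CPM at 3D.

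Microglial genes differed between the 2 pairs of pools. The 18 homeostatic genes had a median of 0.32 in the fit, made up of -0.32 in the female and 1.0 in the male pair, and 2 of them lay above naïve in both pools. These were Fcgr3, an IgG receptor, at 15.6 and 17.4 CPM in naïve and 19.7 and 67.6 CPM at 6W (1.23 ± 0.41), and Fcrls, a microglial Fc receptor-like protein, at 15.9 and 12.5 CPM in naïve and 21.7 and 27.5 CPM at 6W (0.82 ± 0.30). Cx3cr1, the fractalkine receptor, was at 9.88 CPM in the 6W female and 125 CPM in the 6W male pool, around the naïve values of 102 and 67.2 CPM. The 16 phagocytic genes had a median of 0.27, with 5 above and 1 below naïve in both pools. Their summed level was 9990 and 10800 CPM in naïve and 10200 and 26900 CPM at 6W, so that it was the male pool that stood out. The male pool was also the higher one at the earlier times, with 11700 and 20000 CPM at 3D and 11600 and 32100 CPM at 2W in the female and male pools. Of 19 complement genes, 4 lay above and 0 below naïve in both pools, and C3ar1, the receptor of the C3a fragment, was at 9.42 and 13.3 CPM in naïve and 16.3 and 22.5 CPM at 6W (0.77 ± 0.29).

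Myelin and axonal genes differed between the 2 pairs of pools. Of the 17 genes of oligodendrocytes and myelin, 5 lay above and 0 below naïve in both pools, and 0 had an unadjusted p under 0.05. In both pairs 6 were higher and 0 lower, beside 5252 higher and 5459 lower of all 22438 genes tested. The list's median was 0.29 in the fit, -0.22 in the female and 0.81 in the male pair. Its summed level was 31200 and 25800 CPM in naïve and 20000 and 40900 CPM at 6W. In the 2W pools it had been 14200 and 20600 CPM, below both naïve pools. Of the 18 ganglion cell and axonal genes, 2 lay above and 1 below naïve in both pools, with a median of 0.12 in the fit, -0.38 in the female and 0.57 in the male pair. Nefl, the light neurofilament of axons, was at 101 and 137 CPM in naïve and at 89.8 and 238 CPM at 6W (0.37 ± 0.53), with the 6W pools on both sides of naïve. The amount of myelin-bearing or axon-rich tissue in a pool cannot be told apart from a change in these cells.

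Tissue from around the nerve also varied between pools. The 14 fibroblast, scleral and meningeal genes summed to 25500 and 17800 CPM in naïve and to 37300 and 4610 CPM at 6W, the highest and the lowest of the 8 UON libraries both being 6W pools. Dcn, a proteoglycan of fibroblasts, was at 495 and 516 CPM in naïve and 493 and 403 CPM at 6W. The 18 photoreceptor genes summed to 106 and 75 CPM in naïve and 191 and 80.8 CPM at 6W. The surface epithelium list (11 genes, 7 of them tested) summed to 17.5 and 83.8 CPM in naïve and 35.2 and 6.77 CPM at 6W. The blood list had the highest median of the lists, 1.82 (1.05 in the female and 2.13 in the male pair). Hba-a1, an alpha globin, was at 81.9 and 190 CPM in naïve and at 179 and 930 CPM at 6W (1.84 ± 0.60), and the 6W female pool lay below the naïve male pool. Of the 6 blood genes, 4, all globins and all higher, had an unadjusted p under 0.05 (background 0.651%), and 1 was above naïve in both pools. The part of these tissues in the differences of the genes named above was not tested.

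**Figure D3:**
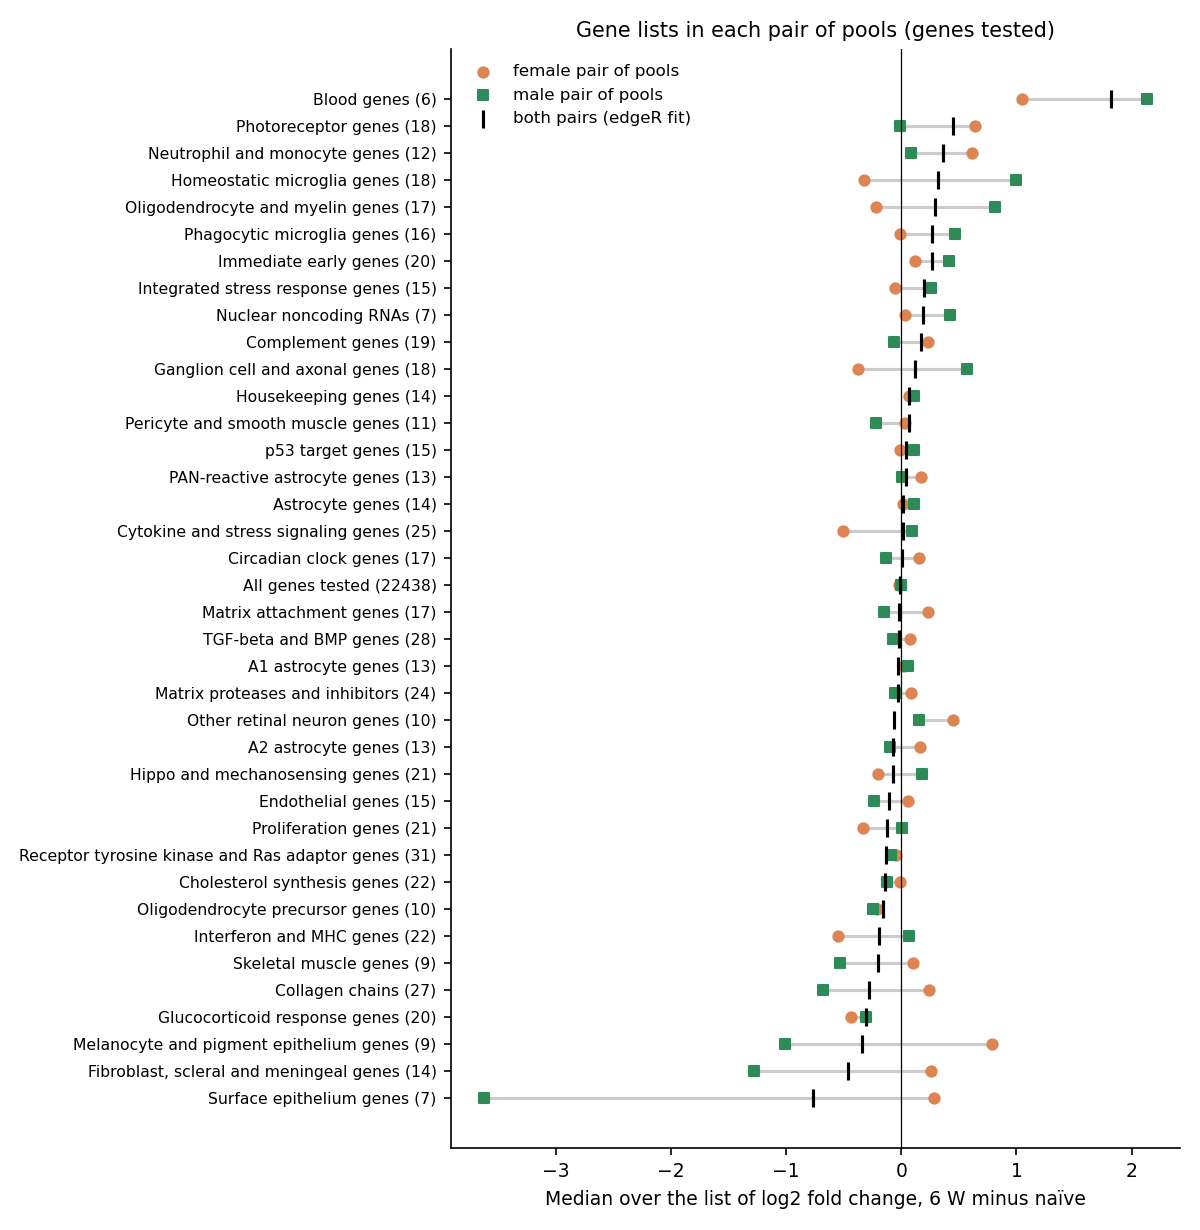
For each list, points give the median log2 fold change of 6W against naïve in the female pair (orange circles) and the male pair (green squares), and black marks the median in the fit of both. Lists of astrocytes and housekeeping genes sit near 0 in both pairs, whereas microglial, myelin, axonal, fibroblast and collagen lists lie on both sides of 0 in the 2 pairs.

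Among interferon-induced genes the naïve female pool stood above the other 3 pools. Ifit1, an antiviral effector, was at 1010 CPM in the naïve female and 136 CPM in the naïve male pool and at 111 and 117 CPM at 6W (-1.77 ± 0.62). Of the 22 genes tested, 4 were lower at an unadjusted p under 0.05 (background 1.36%), Ifit1, Iigp1 and Oasl2 among them, and the list's median was -0.55 in the female but 0.063 in the male pair. The 22 cholesterol synthesis genes had 8 below and 3 above naïve in both pools with a median of -0.14. The 15 p53 target genes had a median of 0.045, and Gadd45a, a DNA damage and stress gene, was the member with an unadjusted p under 0.05, at 18.9 and 26 CPM in naïve and 32 and 64.8 CPM at 6W (1.05 ± 0.29).

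Over all genes, the direct comparison of 6W with 3D UON gave 0 calls by edgeR (smallest adjusted p = 0.19, 1018 genes or 4.54% at an unadjusted p under 0.05) and 134 by DESeq2 (0.655%), 19 higher (0.0929%) and 115 lower (0.562%) at 6W. That of 6W with 2W also gave 0 by edgeR (smallest adjusted p = 0.77, 1220 genes or 5.44% at an unadjusted p under 0.05) and 201 by DESeq2 (0.982%), 83 higher (0.406%) and 118 lower (0.577%). At 3D against naïve edgeR gave 0 (868 genes or 3.87% at an unadjusted p under 0.05) and DESeq2 129 (0.608%), and at 2W they gave 0 (801 or 3.57%) and 76 (0.303%). The 3D female and 2W male libraries were the shallowest, with 19.5 and 16.2 M counts. DESeq2 thus called fewer genes at 6W than at the earlier times; whether the number itself differed was not tested.

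Genes that the study discusses for glaucoma, a list drawn from these samples and so no independent evidence of their direction, stood nearer to naïve at 6W than at 3D. Several were named there for their change at 3D, so a smaller difference at 6W follows in part from the choice. Others, such as Osmr, Fgf2, Edn2, Stat3 and Socs3, were named there for the retina. Of the 18 genes of the list that were tested, 8 lay above and 3 below naïve in both pools. The median was 0.29 at 6W against 1.23 at 3D. Timp1, another metalloproteinase inhibitor, was at 28.9 and 26.9 CPM in naïve, 153 and 106 CPM at 3D, 79.6 and 83.2 CPM at 2W, and 28.9 and 37.5 CPM at 6W. Its pools were ordered 3D, 2W, then 6W together with naïve, with a 6W minus 3D difference of -1.96 ± 0.28 (edgeR adjusted p = 0.54) and a 6W minus naïve difference of 0.26 ± 0.27. Fcrls was at 97.9 and 59.3 CPM at 3D and 56.2 and 49.4 CPM at 2W, and its 6W pools lay in between those and naïve. Dock2, an exchange factor of leukocyte migration, was at 7.43 and 6.77 CPM in naïve and 10.3 and 15.1 CPM at 6W (0.83 ± 0.31). Stat3, the transcription factor of reactive gliosis, was at 275 and 309 CPM in naïve and 428 and 410 CPM at 6W (0.52 ± 0.24), after differences of 0.046 at 3D and -0.20 at 2W. Pla2g3, a secreted phospholipase, was lower, at 3.86 and 2.38 CPM in naïve and 0.865 and 1.01 CPM at 6W (-1.67 ± 0.65). Edn2, an endothelin of injured retina, had no count in the 8 UON libraries.

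**Figure D4:**
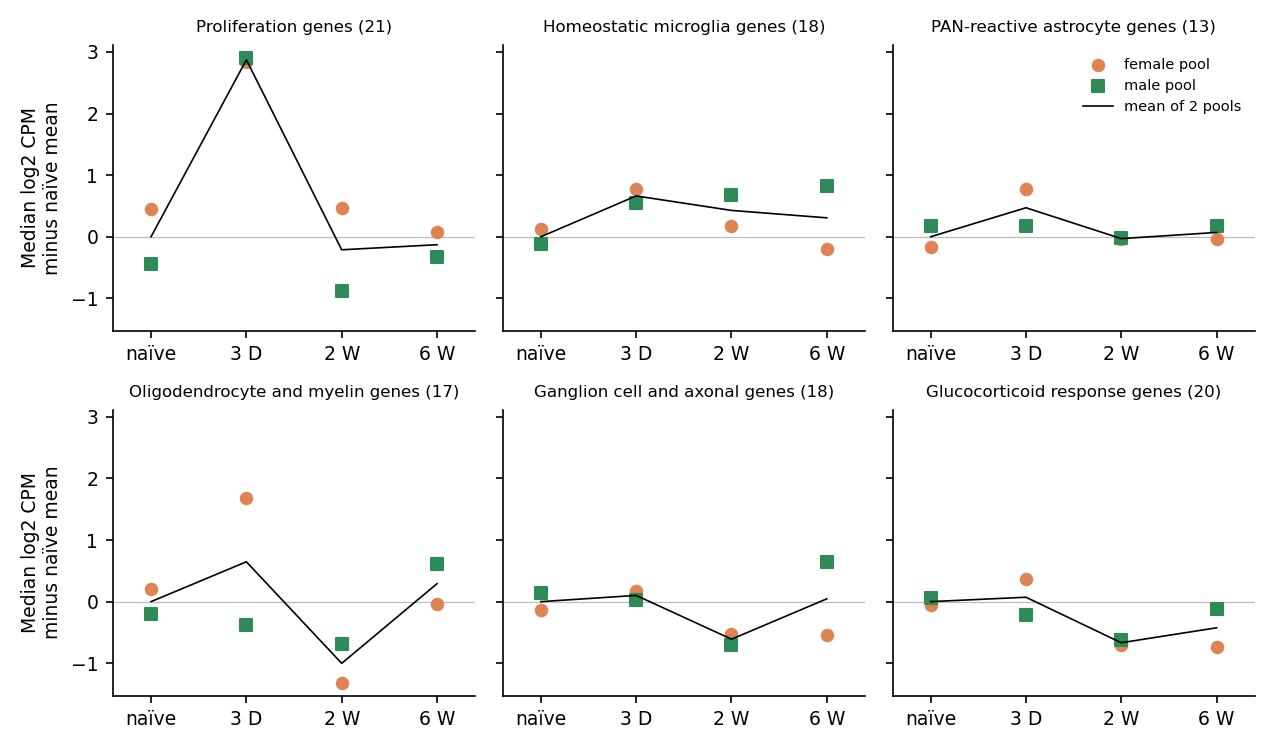
Each panel gives, for 1 list, the median log2 CPM of its genes in every UON pool relative to the mean of the naïve pools, from naïve to 3D, 2W and 6W, with circles for female pools, squares for male pools and a line through the mean of both. The proliferation list is high at 3D alone, and the 6W pools of the microglial, myelin and axonal lists are apart from each other.

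The 6W differences were also set against those of the myelinated optic nerve (MON) and the retina of the same model, each with its own naïve pools. By edgeR 0 genes had a different 6W response in UON than in MON (smallest adjusted p = 0.77, 651 genes or 2.52% at an unadjusted p under 0.05) and 0 a different one than in retina (0.88, 1158 genes or 4.33%), while DESeq2 called 20 (0.0802%) and 52 (0.217%). UON, MON and retina were taken from the same mice, so these libraries share animals. With the pool of mice as a block, edgeR called 1 gene for UON minus MON (the pseudogene Gm28661, adjusted p = 0.0084) and 0 for UON minus retina (smallest adjusted p = 1). DESeq2 with this block, on the genes edgeR tested, called 55 and 28. The 20 genes were chosen for their difference in UON, so a smaller one elsewhere follows in part from the choice. Neat1 stood at 211 and 286 CPM in naïve MON and 193 and 207 CPM at 6W, and its response in UON exceeded that in MON by 3.00 ± 0.44 on the log2 scale (edgeR adjusted p = 0.77). Fosl2 was at 7.92 and 7.67 CPM in naïve MON and 6.7 and 8.26 CPM at 6W, a difference between responses of 1.74 ± 0.39 (edgeR adjusted p = 1). Timp2 went the other way in MON, from 254 and 218 CPM to 440 and 478 CPM, a difference of -2.83 ± 0.69. Ppp2ca likewise stood higher in MON at 6W, at 174 and 189 CPM after 93 and 119 CPM in naïve (-2.34 ± 0.60).

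Grb2 was the gene of the 20 whose difference in the retina was nearly as large as in the UON, with 32.4 and 32.2 CPM in naïve retina and 10 and 14.9 CPM at 6W (log2 fold change -1.35, edgeR adjusted p = 0.66), and the UON minus retina difference was -0.17 ± 0.38 (edgeR adjusted p = 1). Pilra also stood higher in retina at 6W, by 2.11 (edgeR adjusted p = 0.87), from 0.0835 and 0.358 CPM to 0.908 and 0.638 CPM. Fkbp5 had a 6W minus naïve difference of -0.57 in retina (edgeR adjusted p = 0.86), at 23.8 and 25.6 CPM in naïve and 15.8 and 17.1 CPM at 6W, while in MON its pools overlapped at 19.9 and 44.2 CPM in naïve and 24.4 and 64.6 CPM at 6W. Neat1 was low in retina, at 5.95 and 6.09 CPM in naïve and 8.79 and 0 CPM at 6W.

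**Figure D5:**
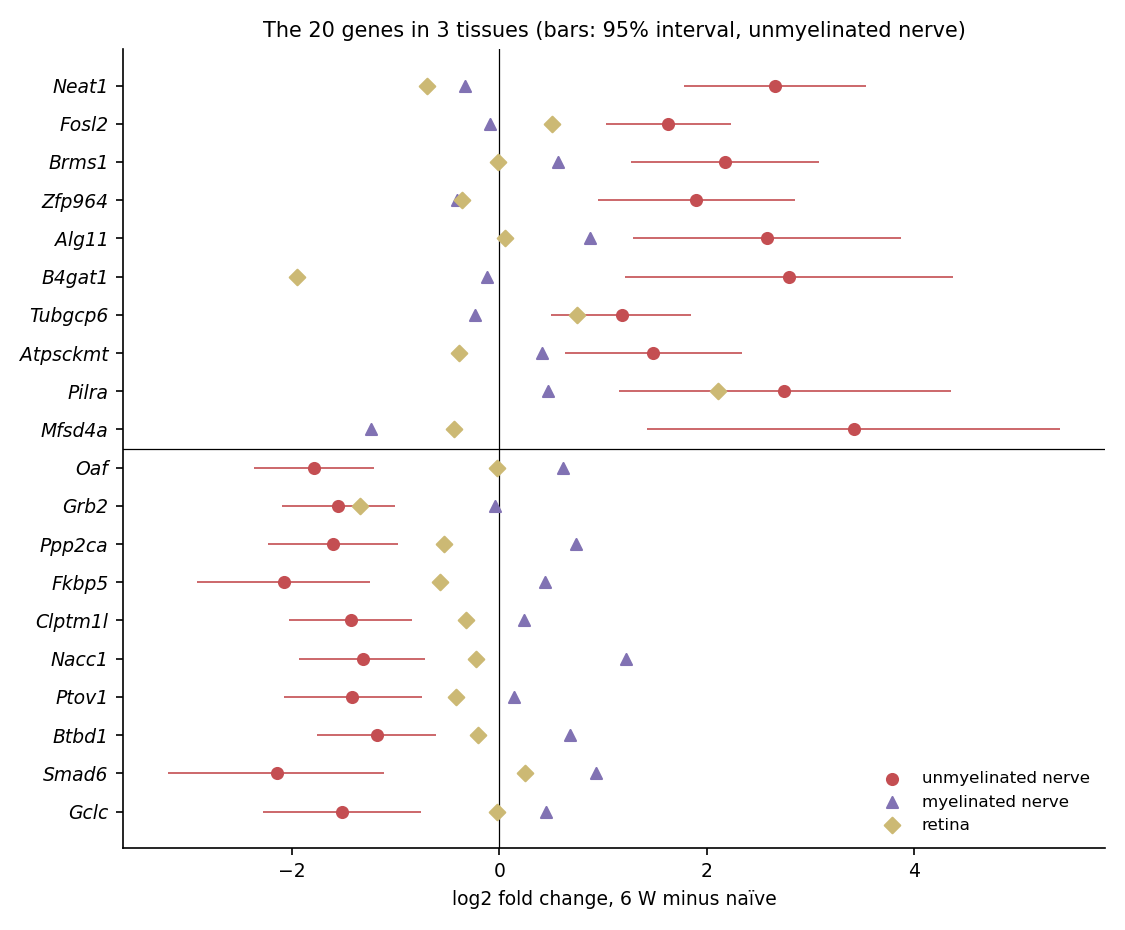
Points give the log2 fold change of 6W against naïve for the 20 genes in UON (red circles, with the 95% interval), MON (purple triangles) and retina (yellow diamonds). Most MON and retina points lie nearer to 0 or across it, and Grb2 and Pilra in the retina lie close to their UON points.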

How the data were processed

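RNA of micro-dissected UON was extracted with TRIzol, pooled by sex (2 mice per pool) and made into libraries with an ultra-low-input kit. According to the study's methods and the submitters' processing notes, HISAT2 2.2.1 placed the paired reads on GRCm38, and the authors deposited estimated counts per gene and transcript, made with StringTie 1.3.0 on Gencode M25. The authors also deposited FPKM values per library, where a few values just below 0 were read as 0. Whether counting used strand is not given in the sources used here.

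The estimated counts, already whole numbers, were tested with edgeR 4.0.16 (R 4.3.3) by the quasi-likelihood test with TMM factors, filterByExpr (minimum count 10), and terms for time and sex, over the 8 naïve and glaucoma UON libraries, with Benjamini-Hochberg adjustment over all genes tested. The residual degrees of freedom were 3. Calls needed a log2 fold change beyond 1 together with an adjusted p under 0.05. Differences between tissues were the interaction term over 16 libraries, with the pool of mice (same group and sex in both tissues) as a block in an alternative, since the study dissected the tissues from the same animals. Residuals of such pools after time and sex correlated across genes at -0.0546 to 0.114 between UON and MON and at -0.00782 to 0.0108 between UON and retina. DESeq2 1.42.0, limma 3.58.1 on voom weights and on log2(FPKM + 1), other filters and scalings, and fits without single libraries served as alternatives. The edgeR and DESeq2 fits of the UON libraries were tested on simulated counts. The sex labelled matched sex-linked expression in 8 of 8 UON libraries, and each of 36 count columns was matched best by its own sample's coverage. Intervals are 95% and from the fit.

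Genes were named by a rule: the 10 of each direction with the smallest p, a symbol that is no clone name, at least 1 CPM in a group and the same direction in both sexes; the first 2 and the extreme members of each list; members called by any fit; and genes the study names for glaucoma. Ggta1, Klf9, Nefl, Oasl2, Sgk1 and Vim were named after their values were seen, and a few members of the lists are not reported here. The lists and the comparison itself were chosen with earlier results of these data known. Transcripts and overlapping genes were taken from Gencode M21, in which 37 of 37 genes matched by identifier, and promoters from RefSeq on GRCm38.p6. Crush libraries entered only 1 alternative.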

Additional observations from a re-analysis of the deposited data

How the results depend on the processing

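At 6W against naïve, edgeR gave 0 calls with RLE size factors, without the sex term, with all 12 UON libraries and without a fold limit. DESeq2 gave 33, edgeR without the filter on low counts 2 (Neat1 and Adnp, both higher), and edgeR on the naïve and 6W libraries alone 4, all pseudogenes of chromosome 1 (Gm28439, Gm29216, Gm28661 and Gm10222). Leaving out 1 library gave 0 to 4: the same 4 pseudogenes without the 3D female or the 3D male pool, Gm28661 without the naïve female pool, and Gm28661 and Purb without the naïve male pool. Chosen after seeing the data, the older edgeR dispersion and limma-voom gave 0, and edgeR without the 2 libraries under 20 M counts gave 4, these pseudogenes again. limma on FPKM gave 0 with a pseudocount of 1 or 0.1, and with no filter.

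Among the 20 genes named by p, the sign held under each of 20 alternatives. They were chosen for a small p and the same direction in both sexes, so a change of sign was unlikely from the start. DESeq2 called 17; Tubgcp6, Atpsckmt and Btbd1 were called by no alternative, and 10 moved by over 1.5 times. On log2(FPKM + 1) the difference was 1.31 for Neat1, 0.34 for Zfp964, 1.58 for Alg11 and 0.5 for Tubgcp6. It was 0.82 for Atpsckmt, 1.03 for Pilra, 1.51 for Mfsd4a, -0.52 for Nacc1 and -1.32 for Smad6. This scale understates low genes. For Neat1 and Nacc1 in the female pair, and Zfp964 in the male pair, FPKM without a pseudocount also differed less than CPM. The part of transcript assignment in these smaller differences was not tested. B4gat1 was at 1.69 without the 6W male pool.

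For the other comparisons, DESeq2 gave 129 calls at 3D and 76 at 2W, 134 for 6W against 3D and 201 for 6W against 2W, 20 for UON minus MON and 52 for UON minus retina. Without the filter these were 27 at 3D, 26 and 11 for the direct comparisons of times, and 2 for UON minus MON. Leaving out 1 library gave 0 to 5 at 3D and at 2W, 0 to 12 for 6W against 3D (12 without the 3D male pool), 0 to 1 for 6W against 2W, 0 to 4 for UON minus MON and 0 to 3 for UON minus retina.

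Within UON there was no pairing between groups, since the mice of each group were different animals. Sex was a term of the fit. Between tissues, the replicate block of the pool of mice, added after seeing the data, gave 1 call (Gm28661) by edgeR and 55 by DESeq2 (on the genes edgeR tested) for UON minus MON, and 0 and 28 for UON minus retina. With 2 pools a group and a biological coefficient of variation of 0.561, a p that misses the threshold does not show that groups were alike. Of the recomputed list medians 75 moved by more than the spread of the pools and 685 did not.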
